A study of Mus musculus with 36 samples.

Results

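B cells and the antibody-secreting plasma cells that arise from them were followed in liver RNA through 9 genes, Cd79a, Cd79b, Cd22, Blk, Ms4a1, Pou2af1, Mzb1, Prdm1 and Sdc1. They were chosen by symbol, and all 9 were found among the 24421 genes counted in each of the 36 libraries. A B cell recognises antigen through a surface immunoglobulin that signals through the proteins of Cd79a and Cd79b, and Src-family kinases such as the product of Blk pass that signal on. Cd22 encodes an inhibitory co-receptor of the same complex, Ms4a1 a membrane protein of mature B cells, and Pou2af1 a coactivator of the octamer-binding transcription factors. On the way to a plasma cell, Prdm1 encodes the repressor that shuts down the B cell programme, Mzb1 encodes a protein of the endoplasmic reticulum that assists antibody assembly, and Sdc1 encodes a surface proteoglycan used as a plasma cell marker. In liver, B cells are a minority among the leukocytes, and hepatocytes themselves make the Sdc1 protein.

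The livers came from male C57BL/6J mice that were 7 weeks old when purchased and were acclimated for 1 week. For 12 weeks all 36 had eaten CDAHFD, which is rich in fat, lacks choline and brings on steatohepatitis. The HFD mice then ate a high-fat diet for 2 weeks and received, once a week under the skin, Fc at 4.3 mg/kg (10 mice) or Fc(mML1)B3 at 5 mg/kg (10 mice). In the standard diet experiment, mice ate standard diet for 10 days and received the same doses of Fc (9 mice) or Fc(mML1)B3 (7 mice) on days 1, 4 and 7. Fc is an antibody fragment without the inserted peptide and served as the control, and Fc(mML1)B3 is the same fragment carrying a macrocyclic peptide that activates Met, the receptor of hepatocyte growth factor. No group stayed on CDAHFD, and none had never eaten it. Diet went together with experiment, dosing schedule and length of treatment, so these cannot be told apart.

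Each mouse gave 1 library of 14949035 to 28466853 counted reads. The 6 hepatocyte markers examined, among them Alb and Apoa1, summed to between 80680 and 155600 CPM (counts scaled to 1000000 per library) in each library, as the tissue label has it. The sample number inside the library names ran in what were taken as separate series, set by group and runs of numbers. Some numbers recur between groups, so the numbers alone do not fix the series. All Fc mice of the HFD experiment had 1 series, their Fc(mML1)B3 mice 1 to 4 and 5 to 10 had 2 others, and Fc mice 6 to 9 of the standard diet shared a series with all the Fc(mML1)B3 mice there. Under the HFD, series set in this way and injected protein therefore cannot be told apart. No series held mice of both diets, so number series went together with diet as well. These are whole-liver libraries, in which fewer cells of a type and less RNA per cell cannot be told apart.

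On mm10, reads were counted over the exons of Cd79a at chr7:24897511-24902197, Cd79b at chr11:106311341-106314529, Cd22 at chr7:30865404-30880342 and Blk at chr14:63372837-63417187. Ms4a1 lies at chr19:11250603-11266151, Pou2af1 at chr9:51213690-51240079 and Mzb1 at chr18:35647265-35649367. Prdm1 lies at chr10:44437174-44458748 and Sdc1 at chr12:8771396-8793687. In the counted annotation, no member shared exonic sequence with another gene. In the GENCODE annotation of the same build, exonic sequence of Cd22 also belonged to Gm29439 and that of Mzb1 to a gene labelled SPATA24. Strand was ignored in counting, so reads of such partners cannot be told apart from those of the member.

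Promoter sequence from RefSeq (GRCm38.p6) was matched for 5 of the 9 members. It is shown for 3, Cd22, which had the lowest adjusted p of the 9 under the HFD, Cd79a, the signalling partner of the antigen receptor, and Sdc1, the 1 member that was higher in Fc mice under the standard diet than under the HFD. Each stretch lies within the 250 bases before the RefSeq start, is written in the gene's own direction and holds only bases outside annotated exons. For Cd22 that start lies inside the counted gene, whose 5′ end is at 30880342, so the stretch is not sequence before the start of the counted annotation. Capitals mark matches to CCCNNGGG, the core of the motif of the B cell factor EBF, or to the GC box GGGCGG, on either strand.

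Cd79a, chr7:24897247-24897380, plus strand: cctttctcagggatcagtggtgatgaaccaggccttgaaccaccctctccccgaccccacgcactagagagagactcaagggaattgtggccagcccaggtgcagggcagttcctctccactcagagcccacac

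Cd22, chr7:30879029-30879176, minus strand: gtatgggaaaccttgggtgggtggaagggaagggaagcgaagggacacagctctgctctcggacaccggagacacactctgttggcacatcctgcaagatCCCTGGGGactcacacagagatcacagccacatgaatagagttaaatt

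Sdc1, chr12:8771182-8771322, plus strand: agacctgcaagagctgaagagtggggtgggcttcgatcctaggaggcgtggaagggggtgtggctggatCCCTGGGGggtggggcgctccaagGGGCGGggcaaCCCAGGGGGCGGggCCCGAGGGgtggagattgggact

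The Cd22 stretch held 1 EBF core and the Sdc1 stretch 3, against 11.8% of the 32851 RefSeq promoter windows with at least 1. In Sdc1, 1 of the 3 overlaps the second of its 2 GC boxes, a motif found in 32.7% of windows. None of the 5 matched members held the octamer ATGCAAAT in the stretch searched, which 1.6% of windows did. Guanine and cytosine made up 69.5% of the Sdc1 stretch, 59.7% of that of Cd79a and 53.4% of that of Cd22, and the median over all windows was 52.4%. These matches describe the letters only, and no binding was measured.

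Sdc1 stood far above the other 8 genes. In CPM divided by kilobases of exon (RPKM), the mean level of Sdc1 was 72.4 ± 14.2 (SD, n = 36), and that of Cd79b, the next in order, was 1.91 ± 0.73. Cd79a followed at 1.70 ± 0.53, Cd22 at 1.19 ± 0.44, Mzb1 at 0.763 ± 0.547 and Ms4a1 at 0.637 ± 0.249. Pou2af1 at 0.403 ± 0.219, Blk at 0.279 ± 0.121 and Prdm1 at 0.266 ± 0.104 were the lowest per length. Apart from Sdc1 and Cd79b, no neighbours in this order differed by more than the larger of their SDs. In raw reads, Sdc1 had 2151 to 7894 per library, Cd22 48 to 206, Cd79a 18 to 106, Cd79b 14 to 97 and Prdm1 8 to 74. Ms4a1 had 12 to 58, Pou2af1 4 to 82, Mzb1 3 to 45 and Blk 2 to 31. Every library held at least 1 read of each of the 9. Random counting alone gives an error of 28.9% at the median count of Mzb1, 9.54% at that of Cd22 and 1.40% at that of Sdc1. Both ends of a fragment were counted as reads, so the true counting error is larger.

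**Figure D1:**
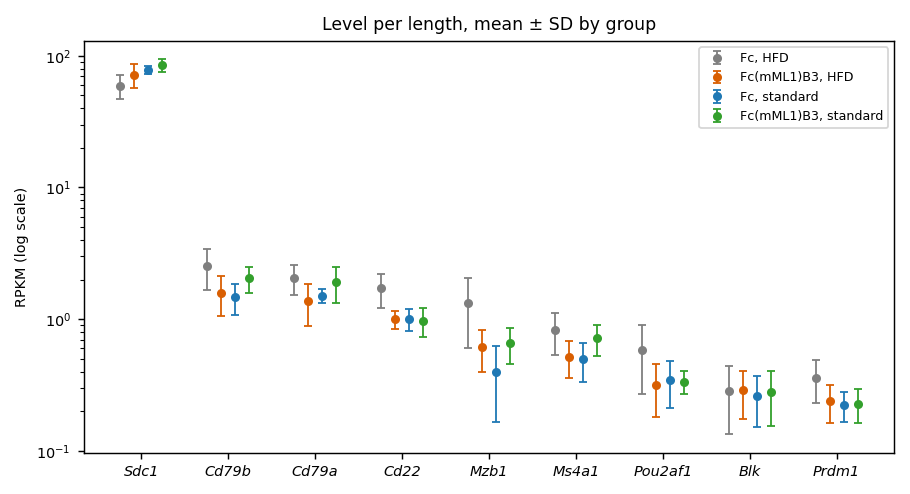
Level per length of the 9 genes (RPKM, log axis) by group; points are group means and bars SD over 10, 10, 9 and 7 livers. Sdc1 lies between 59.3 and 84.4 RPKM in the 4 groups, and every other gene lies at or below 2.53 RPKM.

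The first question was whether Fc(mML1)B3 changed these genes while the mice stayed on the HFD. Of the 9 genes, Cd22, Mzb1, Ms4a1 and Cd79b were lower than in the Fc mice at an adjusted p below 0.05 (edgeR quasi-likelihood F-test, Benjamini-Hochberg adjustment over 13299 genes), and none was higher. Over all genes tested, 6.68% were called lower and 8.14% higher. The median log2 fold change was -0.67 over the 9 members and -0.01 over all genes. Cd79a and Pou2af1 had negative fold changes that missed the threshold, as did Prdm1, Blk had a fold change near 0, and Sdc1 had a positive one that also missed it, with an unadjusted p below 0.05.

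Cd22 showed the firmest difference. Fc mice had 75 to 206 reads of this inhibitory co-receptor (median 153.5), and Fc(mML1)B3 mice had 48 to 140 (median 102.5). On the CPM scale, the means were 7.59 ± 2.18 (SD, n = 10) and 4.43 ± 0.71 (SD, n = 10). All 10 Fc(mML1)B3 livers lay below the Fc median and 3 lay below every Fc liver, and the groups overlapped, with Fc mice 2 and 10 at the low end of theirs. The log2 fold change was -0.76 ± 0.15 (SE), or 1.69-fold lower (edgeR adjusted p = 0.00146). It was called by edgeR against Fc(mML1)B3 mice 1 to 4 alone (log2 fold change -0.79, adjusted p = 0.049) and mice 5 to 10 alone (-0.72, adjusted p = 0.0151).

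Mzb1 had the largest fold difference of the 9. Its reads ran from 10 to 45 (median 20.5) in Fc mice and from 5 to 21 (median 9) in Fc(mML1)B3 mice. The Fc livers spread widely, from 0.493 to 2.32 CPM, with mice 3 and 7 highest, and the Fc(mML1)B3 livers lay between 0.321 and 0.890 CPM. All 10 of the latter were below the Fc median and 5 were below every Fc liver. The log2 fold change was -1.10 ± 0.30, or 2.14-fold lower (edgeR adjusted p = 0.0172).

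For Ms4a1, reads were 13 to 58 (median 33.5) in Fc mice and 12 to 35 (median 20.5) in Fc(mML1)B3 mice, and all 10 of the latter lay below the Fc median in CPM. The log2 fold change was -0.68 ± 0.22 (edgeR adjusted p = 0.0429). For Cd79b, a signalling subunit of the antigen receptor, reads were 32 to 97 (median 63) and 14 to 57 (median 36). Again all 10 lay below the Fc median, 3 of them below every Fc liver, with a log2 fold change of -0.67 ± 0.22 (edgeR adjusted p = 0.0434). These calls sat close to the threshold. That of Cd79b was lost without any one of Fc mice 2, 3, 4, 5, 8 and 9 or Fc(mML1)B3 mice 1, 4, 7, 8 and 9, with an edgeR adjusted p of up to 0.0851. That of Ms4a1 was lost without any one of Fc mice 1, 2, 3, 4, 6, 8 and 9 or Fc(mML1)B3 mice 2, 3, 4, 6, 7, 8 and 9, with an edgeR adjusted p of up to 0.0844. Those of Cd22 and Mzb1 were kept in all 20 fits that left out 1 library. Without the filter on low counts, the calls of Cd79b (edgeR adjusted p = 0.0574) and Ms4a1 (adjusted p = 0.0654) were lost. Against Fc(mML1)B3 mice 1 to 4 or 5 to 10 alone, edgeR called none of Mzb1, Ms4a1 and Cd79b, at log2 fold changes of -1.03 and -1.14 for Mzb1, -0.65 and -0.69 for Ms4a1 and -0.52 and -0.77 for Cd79b.

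The other subunit, Cd79a, had 26 to 106 reads (median 57.5) in Fc mice and 18 to 61 (median 37.5) in Fc(mML1)B3 mice, with 9 of 10 of the latter below the Fc median. Its log2 fold change was -0.57 ± 0.20 (edgeR adjusted p = 0.0549). It was called without Fc mouse 10 or without Fc(mML1)B3 mouse 1, 3, 5 or 10, with an edgeR adjusted p as low as 0.0265. Pou2af1 had 16 to 82 reads (median 24) and 4 to 26 (median 17). Fc mice 9 and 3, with 82 and 56 reads, were well above the rest of their group. Its log2 fold change was -0.86 ± 0.30 (edgeR adjusted p = 0.0541), and it was called without Fc mouse 1, 4 or 5 or Fc(mML1)B3 mouse 5, with an edgeR adjusted p as low as 0.0246. DESeq2 and upper-quartile normalization called both genes lower, which makes 6 of the 9. Over all genes, DESeq2 called 1030 of 14268 lower and 1244 higher, and upper-quartile normalization turned 889 lower and 1083 higher of 13299 into 1075 lower and 865 higher.

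Prdm1 had 19 to 74 reads (median 37.5) in Fc mice and 8 to 46 (median 22) in Fc(mML1)B3 mice. Its log2 fold change was -0.56 ± 0.23 (edgeR adjusted p = 0.107). Blk, with medians of 14.5 and 15 reads, had a log2 fold change of 0.01 and a 95% interval of -0.60 to 0.62. That interval overlapped those of Cd79b, Ms4a1, Cd22 and Mzb1, and no difference between Blk and another member was tested. Sdc1 had 2211 to 5417 reads (median 3731) in Fc mice and 2151 to 6276 (median 4081) in Fc(mML1)B3 mice. In CPM, 9 of 10 Fc(mML1)B3 livers were above the Fc median, and mouse 5 was the lowest of both groups at 119.7 CPM. The log2 fold change of Sdc1 was 0.29 ± 0.13 (edgeR adjusted p = 0.136), and it was called higher without that mouse (edgeR adjusted p = 0.0223) and by limma-voom, which was run with sample quality weights throughout (adjusted p = 0.0178).

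**Figure D2:**
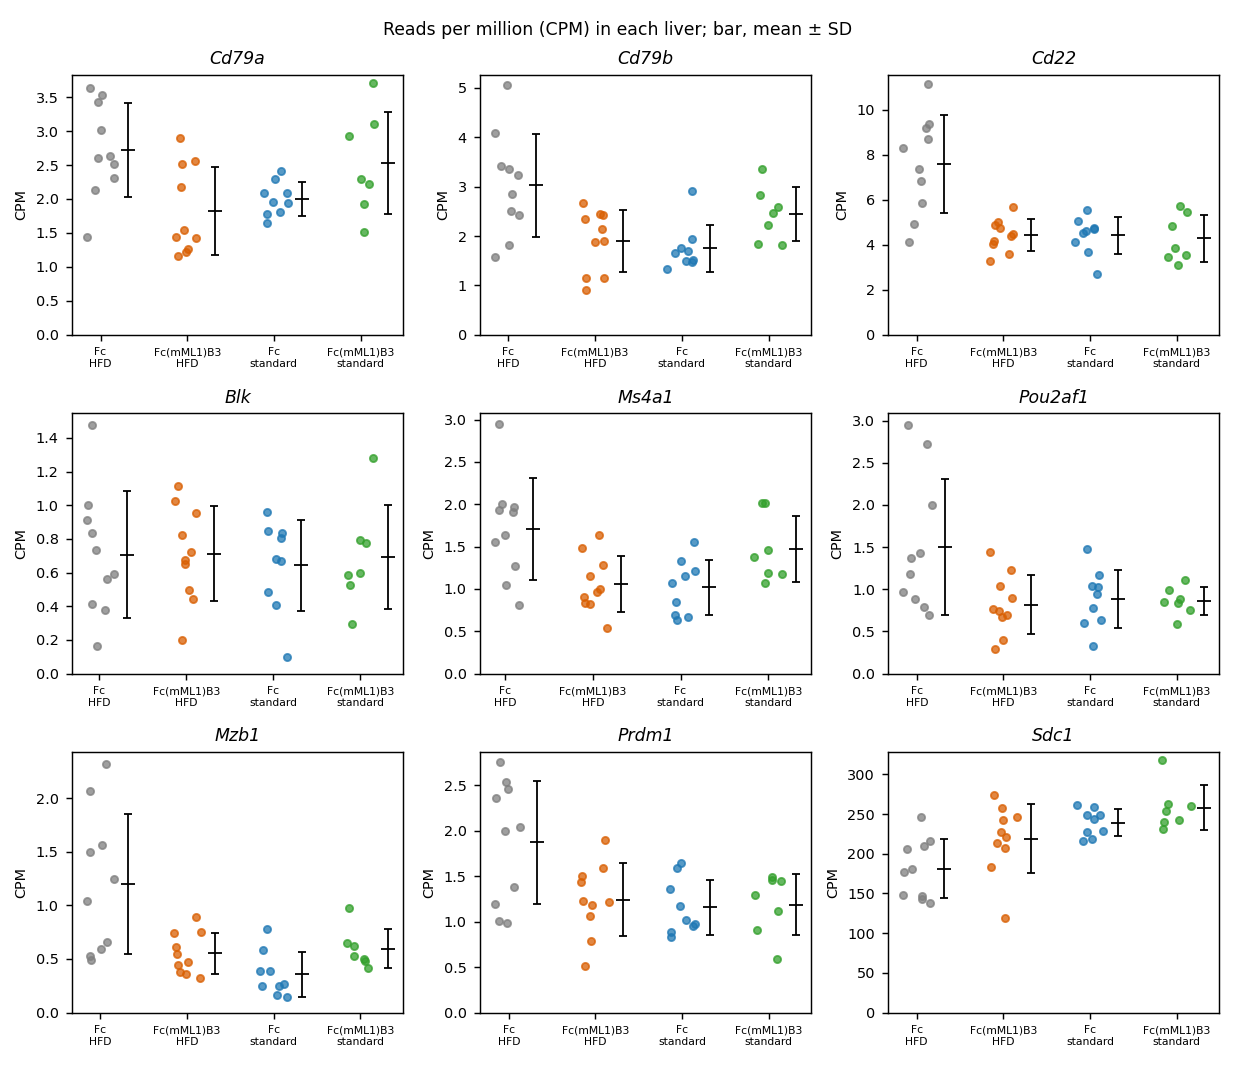
CPM (linear axes from 0) of each gene in each of the 36 livers, by group; points are livers and bars mean ± SD. Cd22 averages 7.59 CPM in Fc mice on the HFD and between 4.29 and 4.43 CPM in the other groups, whereas the mean of Sdc1 is lowest in the Fc mice on the HFD.

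Under the standard diet, none of the 9 genes was called in either direction by edgeR. The background was 7.55% of 13570 genes called lower and 8.56% higher, and 3974 genes had an unadjusted p below 0.05. Among the members, Cd79b, Ms4a1 and Mzb1 had an unadjusted p below 0.05, and Cd79b alone was called by DESeq2 and by limma-voom. The values of the genes that were lower under the HFD lay above 0 for 3 of the 4. Cd79b had 28 to 70 reads (median 36) in Fc mice and 44 to 81 (median 62) in Fc(mML1)B3 mice. All 7 Fc(mML1)B3 livers were above the Fc median, and 1 was above every Fc liver. The log2 fold change was 0.48 ± 0.17 (edgeR adjusted p = 0.0643). It was called by DESeq2 (adjusted p = 0.0449) and limma-voom (adjusted p = 0.0473), and by edgeR without Fc mouse 1, the highest Fc liver at 2.92 CPM (adjusted p = 0.0115), or without Fc(mML1)B3 mouse 5.

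Ms4a1 had 13 to 32 reads (median 22) in Fc mice and 26 to 57 (median 33) in Fc(mML1)B3 mice of the standard diet, all 7 of which were above the Fc median in CPM. Its log2 fold change was 0.53 ± 0.21 (edgeR adjusted p = 0.0982). Mzb1 had 3 to 19 reads (median 6) and 10 to 26 (median 15), also with all 7 above the Fc median. Its log2 fold change was 0.72 ± 0.31 (edgeR adjusted p = 0.123), and it was called without Fc mouse 9 (edgeR adjusted p = 0.0341). Cd22, with medians of 104 and 93 reads, had a log2 fold change of -0.04 and a 95% interval of -0.34 to 0.25. Cd79a had medians of 44 and 65 reads and a log2 fold change of 0.33 ± 0.16 (edgeR adjusted p = 0.182). Pou2af1 (-0.04), Blk (0.10), Prdm1 (0.03) and Sdc1 (0.11) had log2 fold changes within 0.11 of 0. Against Fc mice 6 to 9 alone, which shared the number series of the Fc(mML1)B3 mice, the log2 fold changes were 0.60 for Cd79b and for Ms4a1 and 0.58 for Mzb1, and none was called by edgeR.

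The difference between the 2 experiments in what Fc(mML1)B3 did to the genes was tested in 1 fit over all 36 livers and 14105 genes. A positive value means a higher effect under the standard diet. Of the 9 genes, 5 were called higher and none lower, beside 4.66% and 4.4% of all genes. The difference was 1.83 ± 0.45 on the log2 scale for Mzb1 (edgeR adjusted p = 0.00559), 1.23 ± 0.31 for Ms4a1 (adjusted p = 0.0086) and 1.17 ± 0.29 for Cd79b (adjusted p = 0.00687). It was 0.92 ± 0.26 for Cd79a (edgeR adjusted p = 0.0201) and 0.73 ± 0.22 for Cd22 (adjusted p = 0.0314). For Mzb1, Ms4a1, Cd79b and Cd79a the values in the 2 experiments had opposite signs, and for Cd22 the value under the standard diet was near 0. Pou2af1 (0.83 ± 0.41, edgeR adjusted p = 0.231) and Prdm1 (0.62 ± 0.32, adjusted p = 0.277) did not pass. Blk had a difference of 0.11 with a 95% interval of -0.79 to 1.01, and Sdc1 had one of -0.17 with an interval of -0.48 to 0.15. The median difference was 0.83 over the 9 members and 0.02 over all genes. No marker of other leukocytes was called in this difference. The T cell genes had a median of 0.83 with 9 of 10 above 0, the neutrophil genes tested a median of 1.04 with 3 of 4 above 0, and the Kupffer cell genes one of 0.13 with 6 of 8 above 0. For NK cell genes the median was -0.01 with 3 of 5 below 0, and for plasmacytoid dendritic cell genes it was -0.20 with 4 of 6 below 0.

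The differences of Mzb1, Ms4a1 and Cd79b were called in all 36 fits without 1 library. That of Cd79a was lost without Fc(mML1)B3 mouse 7 of the standard diet (edgeR adjusted p = 0.0542). That of Cd22 was lost without Fc mouse 8 of either experiment or without Fc(mML1)B3 mouse 2, 3 or 5 of the standard diet (edgeR adjusted p up to 0.072).

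**Figure D3:**
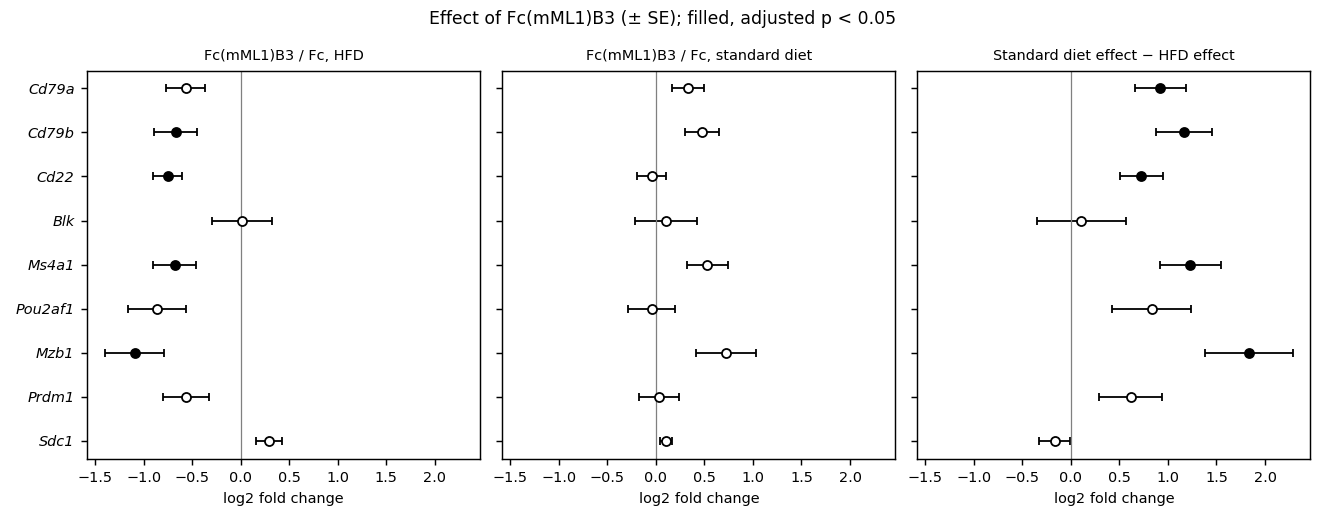
Log2 fold change of Fc(mML1)B3 against Fc under each diet and the difference between the diets, for the 9 genes; bars are SE, and filled points passed an adjusted p below 0.05 in edgeR. Under the HFD 4 genes are filled left of 0, under the standard diet none is filled, and 5 differences are filled right of 0.

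The Fc mice of the 2 experiments were compared next. This comparison and the difference above share the Fc mice of the HFD experiment, so their values are given side by side and are not independent. In the Fc mice, 7 of the 9 genes were lower under the standard diet and 1 was higher, beside 24.6% and 23.3% of 14105 genes. With upper-quartile normalization, genes called over the whole table moved from 3471 lower and 3288 higher to 4795 lower and 2523 higher, and the calls of the 9 members stayed as they were. Without the filter the call of Cd79a was lost (edgeR adjusted p = 0.0598), and by limma-voom those of Cd79a (adjusted p = 0.0891) and Pou2af1 (adjusted p = 0.0771) were. Mzb1 differed most, with a log2 fold change of -1.72 ± 0.31, or 3.30-fold lower (edgeR adjusted p = 2.18e-05), and 7 of 9 livers of the standard diet lay below every Fc liver of the HFD. Cd79b (-0.79 ± 0.20), Cd22 (-0.78 ± 0.15), Pou2af1 (-0.76 ± 0.27) and Ms4a1 (-0.74 ± 0.22) were lower by similar amounts. Prdm1 (-0.68 ± 0.22) and Cd79a (-0.44 ± 0.18) were lower as well, with edgeR adjusted p of 0.0105 and 0.04. All 9 livers of the standard diet lay below the HFD median for Cd79a, Cd79b, Cd22, Ms4a1, Mzb1 and Prdm1, and 8 of 9 did for Pou2af1. Sdc1 was higher, at 239.1 ± 16.9 CPM (SD, n = 9) against 181.1 ± 37.4 CPM (SD, n = 10), with a log2 fold change of 0.40 ± 0.11 (edgeR adjusted p = 0.00248). Blk did not pass (-0.13 ± 0.32).

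The call of Pou2af1 was lost without Fc mouse 3 or 9 of the HFD experiment (edgeR adjusted p up to 0.0669). That of Cd79a was lost without Fc mouse 1, 3, 4, 8 or 9 of the HFD experiment, Fc mouse 2, 3, 4, 6 or 8 of the standard diet, or Fc(mML1)B3 mouse 2 or 5 of the standard diet, whose livers share the fit (edgeR adjusted p up to 0.084).

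In the Fc(mML1)B3 mice, 1 of the 9 genes was called between the experiments. Cd79a was higher under the standard diet, at 2.53 ± 0.75 CPM (SD, n = 7) against 1.82 ± 0.65 CPM (SD, n = 10), and all 7 livers of the standard diet lay above the HFD median. Its log2 fold change was 0.48 ± 0.19 (edgeR adjusted p = 0.0473), and 20.7% of all genes were called higher. Upper-quartile normalization turned 2520 lower and 2914 higher genes of the whole table into 3799 and 2208. Cd79a was called under none of upper-quartile normalization, DESeq2, limma-voom, no filter and the replicate block, with adjusted p from 0.0506 to 0.106. Leaving out 1 library ended its call in 22 of 36 fits, with the highest edgeR adjusted p, 0.166, without Fc(mML1)B3 mouse 7 of the standard diet. Ms4a1 (0.49 ± 0.23), Cd79b (0.38 ± 0.21) and Sdc1 (0.24 ± 0.12) had positive values that did not pass, and the other 5 lay between -0.07 and 0.11.

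**Figure D4:**
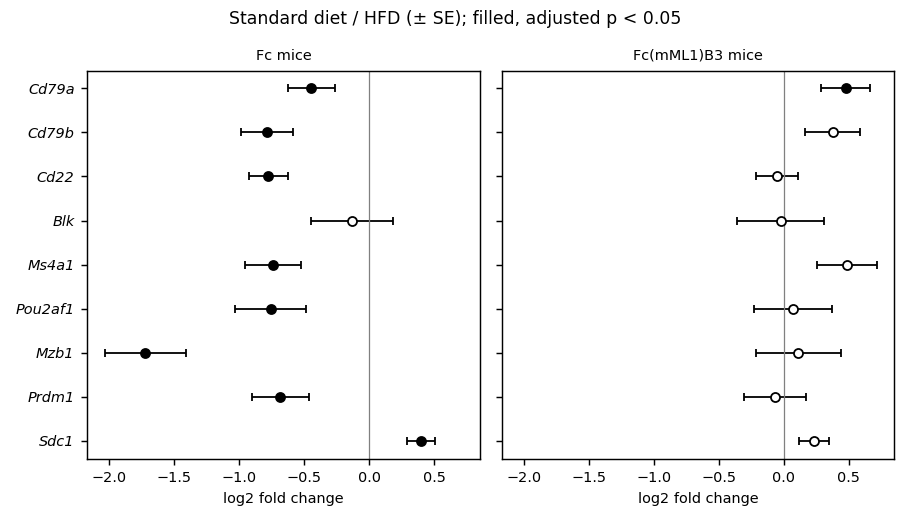
Log2 fold change of the standard diet against the HFD in Fc mice and in Fc(mML1)B3 mice, for the 9 genes; bars are SE, and filled points passed an adjusted p below 0.05 in edgeR. In Fc mice 7 genes are filled left of 0 and Sdc1 right of 0, and in Fc(mML1)B3 mice only Cd79a is filled.

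Across the 36 livers, the members were compared with Cd79a by log2(CPM + 1) after each group's mean was removed. Over 8 relations, Pearson's r was 0.46 for Cd79b, 0.42 for Cd22, 0.42 for Mzb1 and 0.42 for Ms4a1, and each had a permutation p of 0.0322 after adjustment. Spearman's rho was 0.42, 0.37, 0.42 and 0.39 for the same genes, and none passed after adjustment (permutation p of at least 0.0542). Without the 2 livers farthest from the median of Cd79a, r was 0.35 for Cd79b, 0.34 for Cd22, 0.32 for Mzb1 and 0.33 for Ms4a1. Blk had an r of 0.35 (adjusted permutation p = 0.0715), Prdm1 of 0.16, Pou2af1 of 0.12 and Sdc1 of -0.11. Within the 4 groups, r with Cd79a ran from 0.23 to 0.65 for Cd79b and from 0.15 to 0.68 for Cd22, and for Pou2af1 it ran from -0.40 to 0.43. Within the number series of Fc(mML1)B3 mice 5 to 10 of the HFD and the series shared by 11 mice of the standard diet, r was 0.65 and 0.22 for Cd79b, 0.35 and 0.20 for Cd22, and 0.68 and 0.46 for Mzb1. Between members other than Cd79a, r was 0.48 for Cd79b and Ms4a1. It was 0.17 for Cd22 and Cd79b, 0.08 for Cd22 and Ms4a1 and 0.20 for Mzb1 and Ms4a1. At these low counts the relations are weak, and they are given as a description.

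Ranked by r with Cd79a among 14104 other genes, the first 8 were Gimap6 (0.57), Cd27 (0.57), Hmces, Ino80e, Kiz, 4930455G09Rik, Frrs1 and Aimp1 (0.50). Gimap6 encodes a GTPase of lymphocytes and Cd27 a co-stimulatory receptor of T and B cells, and Cd27 had a median of only 9.5 reads. The highest-ranked members were Cd79b at place 25, Cd22 at 62, Mzb1 at 65 and Ms4a1 at 66, and Sdc1 came at 10601. The genes most like Sdc1 had higher r: Gldc (0.86), Aldh1b1 (0.86), Gls2 (0.84), Mcfd2 (0.81), Uroc1 (0.81), Sfxn2 (0.81), Gas2 (0.80) and Cth (0.79). Gldc, Gls2, Uroc1 and Cth encode enzymes of amino acid metabolism that are made in liver. These rankings are descriptions, and the genes share libraries and depth.

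**Figure D5:**
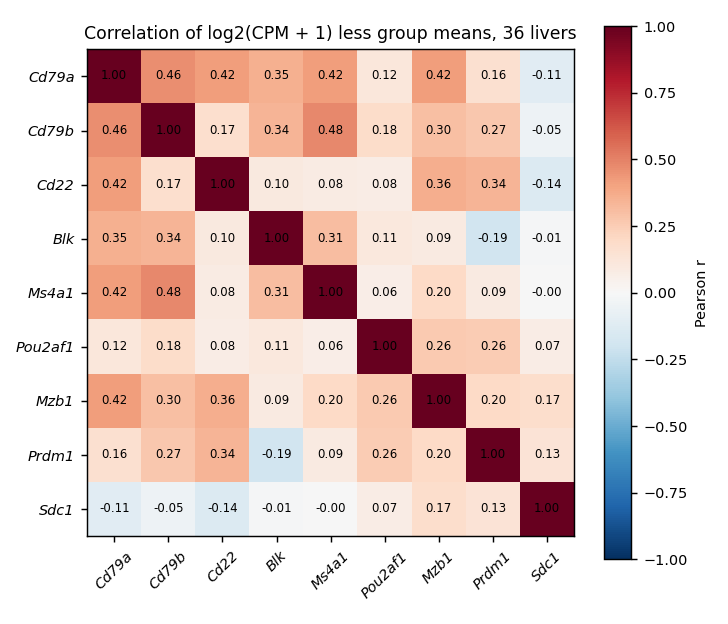
Pearson's r between the 9 genes over 36 livers, from log2(CPM + 1) less each group's mean; colour runs from -1 to 1. Cd79b and Ms4a1 have an r of 0.48 and Cd79a and Cd79b of 0.46, whereas Sdc1 lies between -0.14 and 0.17 with each other member.

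Other genes of B and plasma cells were taken from 5 lists with 74 genes, of which 63 were in the counts. The surface list of 14 genes summed to a median of 417.7 CPM in Fc mice of the HFD, where Cd79a had a median of 2.62 CPM. From which liver cells the reads of the listed genes came was not tested. Immunoglobulin heavy and light chain genes were not analysed here. Under the HFD, 3 of the 52 listed genes that passed the filter were lower with Fc(mML1)B3 and 1 was higher, counts that do not stand above the 6.68% and 8.14% of all genes. The median log2 fold change was -0.29, and 44 of the 52 lay below 0. Fcer2a, the low-affinity IgE receptor of B cells, fell from 10 to 54 reads (median 27) in Fc mice to 2 to 22 (median 13), with a log2 fold change of -1.01 ± 0.30 (edgeR adjusted p = 0.025). Blnk, the adaptor below the antigen receptor, fell by 0.75 ± 0.14 on the log2 scale (edgeR adjusted p = 0.000859), from a median of 470 reads to 291.5. Jchain, which joins IgM and IgA into polymers, was lower as well, with a log2 fold change of -1.24 ± 0.36 (edgeR adjusted p = 0.023) and medians of 210 and 75.5 reads. Txndc5, an oxidoreductase of the endoplasmic reticulum, rose by 0.26 ± 0.09. Pax5, the factor that holds B cell identity, had a log2 fold change of -0.53 ± 0.37 (edgeR adjusted p = 0.345), and Tnfsf13b, the survival factor BAFF, one of -0.26 ± 0.27.

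Under the standard diet, 4 of 53 listed genes fell with Fc(mML1)B3 and 1 rose, again not above the 7.55% and 8.56% of all genes. Pik3ap1 (-0.41 ± 0.08), Ptpn6 (-0.23 ± 0.06) and Ralgps2 (-0.26 ± 0.07) of the signalling list and Bach2 (-0.72 ± 0.19), a repressor of the plasma cell fate, fell, and the chemokine Cxcl12 rose by 0.19 ± 0.05. Pax5 (0.24 ± 0.24) and Jchain (-0.45 ± 0.22) did not pass. The difference between the diets was called for 2 of 54 listed genes, not above the 4.66% of all genes called higher, namely Blnk (1.03 ± 0.21, edgeR adjusted p = 0.000827) and Fcer2a (1.22 ± 0.37, adjusted p = 0.0322), both higher under the standard diet. For Pax5 (0.79 ± 0.47) and Jchain (0.80 ± 0.48) it was not called.

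Between the Fc mice of both experiments, 24 of 54 listed genes were lower under the standard diet and 5 higher, beside 24.6% and 23.3% of all genes, with a median of -0.45 against -0.05 over all genes. Of the surface list, 6 of 14 were lower, led by Cd74 (-0.96), the invariant chain of class II, Cd37 (-0.84) and Cd180 (-0.77). Of the signalling list, 7 of 14 were lower, led by Blnk (-1.07), Vav1 (-0.62) and Ptpn6 (-0.38), and Ralgps2 (0.50) and Pik3ap1 (0.81) were higher. Irf8 (-0.75), Pou2f2 (-0.86) and Spib (-0.62) led the 5 lower of 10 transcription factors, and Bach2 (0.68) was higher. Of 10 plasma cell genes tested, Jchain was lower (-1.45 ± 0.32) and Fam46c (0.76) and Derl3 (0.88) were higher. Of the 6 attraction and survival genes tested, 5 were lower, among them Cxcl12 (-0.43), Ccl19 (-1.20), Ltb (-1.13) and Tnfsf13b (-0.89). Bach2 shares exonic sequence with Bach2os, Cd74 with Mir5107 and Pou2f2 with Mir6537. In the Fc(mML1)B3 mice, 10 of the 54 were lower and 4 higher under the standard diet, beside 17.9% and 20.7% of all genes, among them Fcer2a (0.73 ± 0.28, higher) and Ltb (-0.89 ± 0.25, lower).

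Cxcl13, the chemokine that draws B cells into follicles, stayed below the filter in every comparison. It had 0 to 92 reads in Fc mice of the HFD (median 4), and 0 to 14, 0 to 8 and 0 to 8 in the other groups, with 92 of the 172 reads of the first group in 1 mouse.

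Markers of other cells moved beside some of these results. None of the 10 T cell genes was called under the HFD, but 9 had values below 0 and their median was -0.49. Their sum was 7.79 to 35.3 CPM (median 19.9) in Fc mice and 9.38 to 25.6 (median 14.4) in Fc(mML1)B3 mice. In the Fc mice, all 10 were lower under the standard diet, with a median log2 fold change of -1.15, and their sum was 6.67 to 13.4 CPM (median 8.15). Of 4 neutrophil genes tested under the HFD, S100a8 (-1.46), S100a9 (-1.27) and Ngp (-2.29) were lower with Fc(mML1)B3, beside 6.68% of all genes. The list summed to 5.56 to 71.0 CPM (median 12.6) in Fc mice and 5.42 to 12.9 (median 9.08) in Fc(mML1)B3 mice. No marker of plasmacytoid dendritic cells, NK cells, Kupffer cells, hepatocytes, cholangiocytes, stellate cells or endothelium was called under the HFD. The cholangiocyte genes summed to 167.8 to 856.5 CPM (median 572.6) in Fc mice and 166.5 to 843.4 (median 310.1) in Fc(mML1)B3 mice, with 4 of 6 fold changes below 0. The stellate cell genes summed to 633.8 to 1143 CPM (median 813.7) and 597.4 to 1229 (median 716.3), with 5 of 6 below 0 and a median log2 fold change of -0.33. Of the lymphoid tissue stroma markers, Ccl21a was at 0 in all 36 libraries and Madcam1 and Glycam1 at a median of 0 in each group, and Ccl19 was lower in Fc mice of the standard diet. Of 6 pancreatic acinar genes, 5 had a median of 0 reads in each group. Under the standard diet, Fc(mML1)B3 mice had 0 of 10 T cell genes called, 2 of 6 stellate cell and 1 of 6 cholangiocyte genes lower, 1 of 6 hepatocyte genes lower and 2 higher, and 1 of 4 plasmacytoid dendritic cell genes tested higher, beside 7.55% of all genes lower and 8.56% higher. In the Fc mice, 4 of 6 stellate cell, 2 of 6 cholangiocyte, 2 of 8 Kupffer cell, 2 of 6 plasmacytoid dendritic cell and 1 of 4 neutrophil genes tested were lower under the standard diet, beside 24.6% of all genes, 1 hepatocyte and 1 endothelial gene were higher, and 0 of 5 NK cell genes were called. In the Fc(mML1)B3 mice, where Cd79a was higher under the standard diet, 2 of 10 T cell, 3 of 6 stellate cell, 2 of 6 cholangiocyte, 3 of 6 plasmacytoid dendritic cell, 1 of 8 Kupffer cell and 1 of 4 neutrophil genes tested were lower, as was Ccl19, beside 17.9% of all genes, and 1 plasmacytoid dendritic cell and 1 endothelial gene were higher. The part of these markers in the results for B and plasma cell genes was not tested.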

How the data were processed

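Total liver RNA was sequenced in paired ends, and 1 table of gene counts per mouse was used. The authors made the deposited counts with Fastp, Bowtie2 2.4.5 for ribosomal reads, STAR 2.7.10a on mm10 and featureCounts of Subread 2.0.3, counting each end of a pair and leaving out reads with several alignments and strand. Groups came from the sample titles.

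The 9 members and all lists were chosen with earlier results of these data known. Each diet was fitted separately, and the comparisons between diets in 1 fit, with edgeR 4.0.16 (quasi-likelihood F-test, TMM, filterByExpr) in R 4.3.3 and Benjamini-Hochberg adjustment over all genes tested. All 9 members passed the filter in each fit, so the permutation test planned for filtered members was not needed. A standard error is the absolute log2 fold change over the square root of F, and an interval is 1.96 of these to each side. CPM used TMM-scaled totals over 36 libraries, and RPKM divided CPM by exonic length. Correlations had 100000 permutations within groups. On simulated counts with 200 genes changed 4-fold, 99.5% were recovered under the HFD (13207 genes) with 7.01% false among the calls. The differences of the members were all smaller than 4-fold, so this recovery does not describe them. Of 147 pairs of libraries of 1 group, none was a duplicate (chi-square per degree of freedom at least 6.06), and 68.0 to 74.4% of counts from 1 to 20 were even. Where labels name no separate source beyond the mouse, p-values measure the spread between these mice.

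Named were the 9 members, the called list genes with the smallest p (up to 3 per list and direction), Pax5, Jchain, Cxcl13 and Tnfsf13b, further genes as examples after their values were seen, and the 8 genes most like Cd79a and Sdc1. Some listed genes are not reported here. Tent5c was matched as Fam46c. Alternatives were DESeq2 1.42.0, limma 3.58.1 (voom with sample quality weights), upper-quartile normalization, no filter, single libraries left out, the replicate number as a block, the thresholds of the study and parts of the number series.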

Additional observations from a re-analysis of the deposited data

Results flagged for a closer look

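By the edgeR test of the difference, Fc(mML1)B3 had unequal effects under the standard diet and the HFD on 5 genes, with log2 values of 0.92 for Cd79a, 1.17 for Cd79b, 1.23 for Ms4a1, 1.83 for Mzb1 and 0.73 for Cd22. Over all genes, 4.66% were called higher and 4.4% lower. The calls of Cd79a and Cd22 were lost without some single libraries. Diet, experiment, dosing, length of treatment and number series cannot be told apart in this difference, nor can number series and injected protein under the HFD.

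A single liver stood apart from its group in 3 of the 36 combinations of gene and group. Cd79b was highest at 2.92 CPM (70 reads) in Fc mouse 1 of the standard diet, where the next liver had 1.93 CPM. Mzb1 was highest at 0.974 CPM (26 reads) in Fc(mML1)B3 mouse 3 of the standard diet, with 0.644 CPM in the next. Sdc1 was highest at 317.9 CPM in Fc(mML1)B3 mouse 7 of the standard diet, with 262.1 CPM in the next. Chance alone marks about 1 in 20 such combinations. Without these mice, the log2 fold changes under the standard diet were 0.60 for Cd79b, 0.56 for Mzb1 and 0.05 for Sdc1, and only that of Cd79b then passed in edgeR.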

How the results depend on the processing

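Members called lower under the HFD numbered 4, against 2 without the filter, 1 with the replicate block, 1 against Fc(mML1)B3 mice 1 to 4, 1 against mice 5 to 10, 1 by the thresholds of the study (Mzb1) and 2 to 6 without single libraries. Members called higher there were 0, but 1 by limma-voom with sample quality weights (used in each limma-voom fit here) and 0 to 1 without single libraries. Genes called there were 1972, and 3039 by limma-voom with these weights, 1294 with the block, 705 with mice 1 to 4 and 178 by the study thresholds (adjusted p below 0.1, fold above 2). Under the standard diet, members called higher were 0, but 1 by DESeq2, 1 by limma-voom and 0 to 1 without single libraries, and genes called were 2186, with 1296 under the block, 942 with Fc mice 6 to 9 and 320 by the study thresholds (adjusted p below 0.05, fold above 1.5). For this diet the study also states the pair used under the HFD, which, as an alternative chosen after seeing the data, called 82 genes and no member. In the Fc(mML1)B3 mice, the 1 member higher under the standard diet became 0 by DESeq2, with upper-quartile normalization and without the filter, and 0 to 1 without single libraries; limma-voom called Cd79b and the block Sdc1 instead of Cd79a. Between the diets in the effect, limma-voom with these weights called 2026 genes, against 1278. Members called in the Fc mice between the diets and in the difference of the effects stayed within 1.5 times, although in the Fc mice the call of Cd79a was lost without the filter and those of Cd79a and Pou2af1 by limma-voom. The covariation with Cd79a passed for 4 members by Pearson's r, also with log2(CPM + 4) and with library totals in place of TMM, and for 0 by Spearman's rho. Signs changed only for values that were not called: Blk under the HFD with upper-quartile normalization (-0.024), Pou2af1 (0.24) and Cd22 (0.030) under the standard diet with Fc mice 6 to 9, and in the Fc(mML1)B3 mice Pou2af1 (-0.015, upper quartile), Cd22 (0.011, limma-voom) and Blk (0.027, block). Without single libraries, Blk ranged from -0.10 to 0.20 under the HFD, -0.11 to 0.23 under the standard diet, -0.25 to 0.055 between the diets in Fc mice, -0.24 to 0.10 in Fc(mML1)B3 mice and -0.12 to 0.22 in the difference of the effects. Under the standard diet Cd22 ranged from -0.13 to 0.020, Pou2af1 from -0.16 to 0.073 and Prdm1 from -0.030 to 0.15. In the Fc(mML1)B3 mice Cd22 ranged from -0.13 to 0.011, Mzb1 from -0.050 to 0.19, Pou2af1 from -0.020 to 0.19 and Prdm1 from -0.15 to 0.041.

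The replicate numbers did not pair the mice, since deviations of same-numbered mice correlated between -0.62 and 0.26 under the HFD and between -0.16 and 9e-04 under the standard diet. With the block, only Cd22 stayed lower under the HFD, where the calls of Mzb1 (edgeR adjusted p = 0.0802), Cd79b (0.092) and Ms4a1 (0.127) were lost, and the difference between the diets was lost for Cd22 (edgeR adjusted p = 0.0618). The cause of these changes was not tested. Depth limits Blk and Mzb1 most.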
